A study of Arabidopsis thaliana with 27 samples.

Results

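The regions described here are stretches of the Arabidopsis thaliana genome that carried a called H3K27me3 peak in both libraries of the brm-1 mutant and in no library of any other genotype. Peaks of 8 H3K27me3 lists were merged into regions wherever they shared at least 1 bp, which gave 12231 regions. Of these, 409 had a peak in both brm libraries and none in ref6, brm ref6 or WT, and are called brm-only regions. They are 3.34% of all merged regions. The members were chosen by the presence and absence of H3K27me3 peaks, so their H3K27me3 scores, widths and coverage are given as a description, without tests.

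H3K27me3 is trimethylation of lysine 27 of histone H3, the mark written by Polycomb repressive complex 2 and found on genes that are held silent, many of them developmental regulators. BRAHMA (BRM) is the ATPase of a SWI/SNF complex, which slides or evicts nucleosomes, and SWI/SNF and Polycomb proteins are classical antagonists. REF6 is a Jumonji-domain demethylase that removes the mark. The comparison of the brm lists with the others asks at which places the mark was called in the absence of BRM alone.

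H3K27me3 was immunoprecipitated from 14-day-old seedlings of brm-1, ref6-1, the brm-1 ref6-1 double mutant and wild type (WT) (2 libraries per genotype). Below, the alleles are shortened to brm and ref6. An antibody against GFP was used on seedlings with a BRM-GFP or REF6-GFP fusion. REF6-GFP was mapped in brm and in wild type (2 libraries each), and BRM-GFP in ref6 (2 libraries) and in wild type (1 library); wild type here means that the title names the fusion and no mutant. For BRM-GFP in ref6 replicate 2 the label names a ProBRM-BRM-GFP transgene in the ref6-1 mutant. A further BRM-GFP library and a further REF6-GFP library, whose labels name no genotype, are called the first libraries. In whole seedlings, a mark present in fewer cells and a weaker mark in every cell cannot be told apart. Whether replicate libraries come from separately grown plants is not stated, so p-values measure the spread between these libraries.

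Read depth is unknown, since the files hold peaks. The H3K27me3 lists had 11860 and 12462 peaks in brm, 11925 and 5582 in ref6, 13045 and 13079 in brm ref6, and 11132 and 11634 in WT. The ref6 replicate 2 list stood apart, with few and wide peaks: the median was 1575 bp there, and the other 7 lists had medians between 289 and 527 bp. Without it, 453 regions would be brm-only. The lists covered 10.9 and 10.3 Mb in brm, 5.31 and 11.5 Mb in ref6, 9.83 and 7.28 Mb in brm ref6 and 7.81 and 6.99 Mb in WT, so both brm lists were longer in bases than both WT lists.

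Regions confined to 1 genotype were unevenly spread over the genotypes. Regions in both libraries of a genotype and in none of the other 6 lists numbered 409 for brm, 20 for ref6 (0.164% of all regions), 185 for brm ref6 (1.51%) and 52 for WT (0.425%). Between brm and WT alone, 838 regions had a peak in both brm libraries and in neither WT library, and 71 had the reverse. How much of the excess over WT goes with the greater length in bases of the brm lists was not tested. Cut to the 5582 highest-scoring peaks each, the lists gave 163 brm-only, 36 ref6-only, 25 brm ref6-only and 22 WT-only regions. The order of ref6-only and brm ref6-only thus turned round. That cut equalises the number of peaks and not the bases covered. The brm-only count rests on both brm libraries: it was 1893 without replicate 1 and 1583 without replicate 2, and 2068 regions were found in 1 brm library and nowhere else. The other counts moved likewise: without replicate 1 or 2 of the same genotype, there were 79 or 285 ref6-only, 556 or 1159 brm ref6-only and 332 or 279 WT-only regions. Omitting a library of another genotype also moved some of them by over 1.5 times, to 82 ref6-only regions without brm ref6 replicate 1, to 287 and 317 brm ref6-only regions without ref6 replicate 1 and 2, and to 116 and 82 WT-only regions without brm replicate 1 and 2. The brm-only count was 214 when peaks up to 500 bp apart were merged, and 72 members scored at least 100 in both brm libraries.

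The double mutant, which carries brm-1 as well, had a peak at some of the regions called in brm and not in WT. Of the 838 regions with a peak in both brm libraries and in neither WT library, 394 (47.0%) had a peak in at least 1 brm ref6 library and 172 (20.5%) in both. A peak in at least 1 ref6 library was found in 173 (20.6%). The remaining 409 (48.8%) are the brm-only regions. The shares with a brm ref6 or ref6 peak were not computed over all merged regions, so none is read as high or low. Many regions missed the rule by 1 library. Another 447 regions had a peak in both brm libraries and in a single further library, most often brm ref6 replicate 1 (135 regions), WT replicate 1 (127) or WT replicate 2 (106).

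At the boundary, a single peak just above the lowest score decided whether a region was a member. The score is the authors' own value for a peak, which MACS 1.4 derives from the negative logarithm of the peak's p-value, and no peak scored below 50. Just inside, the weaker of the 2 brm scores was 50.02 at an intergenic region on chromosome 2 (19372387 to 19372580), 50.03 at NAC019 and 50.03 at AT1G04987. Just outside lay AT5G44310, with 54.97 and 61.26 in brm and a peak of 50.21 in WT replicate 1. RL5 had 261.2 and 66.35 in brm and was left out by a peak of 50.22 in brm ref6 replicate 1.

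The brm-only regions were short, and most scored under 100 in at least 1 brm library. Their width ran from 193 to 1359 bp, with a median of 426 bp, against 721 bp over all regions; the rule favours narrow regions, because a wide one meets more peaks. The score had a median of 84.49 in brm replicate 1 (50.21 to 445.4) and 82.67 in brm replicate 2 (50.02 to 533.1). Taking the lower of both scores, the median was 66.48, 72 regions reached 100 and 158 stayed under 60. The higher of both scores reached 100 in 232 regions (56.7%). Neither replicate was the higher one throughout: replicate 1 was higher in 214 regions and replicate 2 in 195, and in 77 regions one score was more than 2 times the other. A single peak in each library made up 356 regions. Bases under a peak in both libraries made up a median of 49.7% of the region, and under 1% at an intergenic region on chromosome 1 (21649555 to 21650207), where the peaks shared 0.613% of it.

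**Figure D1:**
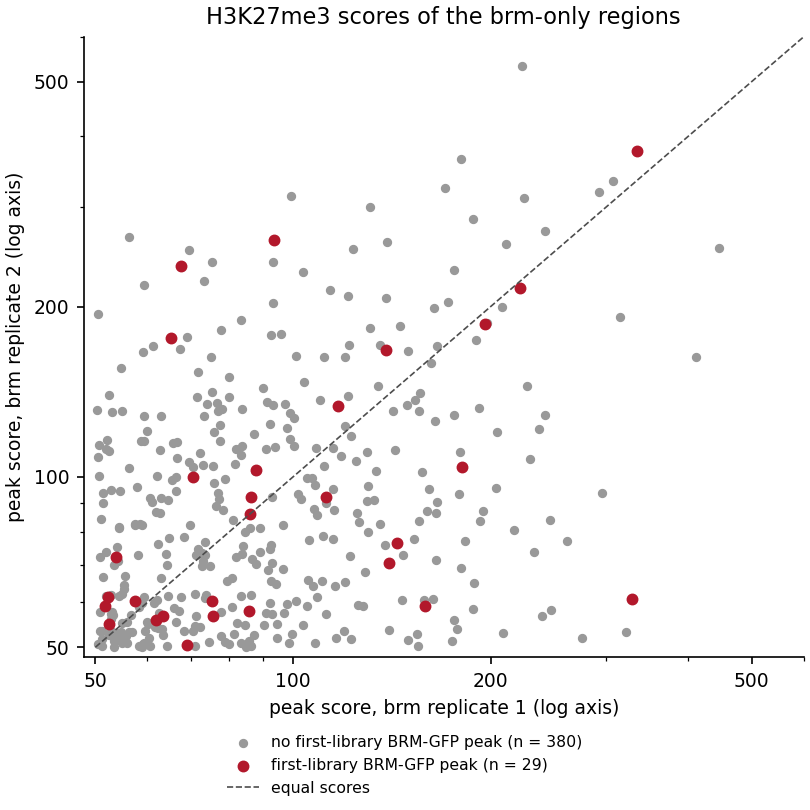
Score of the strongest H3K27me3 peak in brm replicate 1 (x axis) and brm replicate 2 (y axis) for each of the 409 brm-only regions, both axes logarithmic; red points are the 29 regions that overlap a first-library BRM-GFP peak. The lower of both scores stayed under 60 at 158 regions, and the higher one reached 100 at 232. Red points lie among both weak and strong regions.

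Of the 15 strongest brm-only regions, 5 lay in gene bodies that carried no peak in the other 6 libraries: AT2G42040, AT4G15460, NIMIN1, AT2G36780 and CIPK4. AT2G42040 led, with scores of 334.7 and 377.5 over 1089 bp (chromosome 2, 17543140 to 17544228), and a second brm-only region of 724 bp lay beside it on the same gene. The gene body was covered over 67.6% and 41.9% in brm and 0% in each ref6, brm ref6 and WT library. AT4G15460 had scores of 307.3 and 333.0 (chromosome 4, 8841316 to 8842168), and its body was covered over 100% in both brm libraries and 0% in the other 6. NIMIN1, which encodes a partner of the salicylic-acid regulator NPR1, had scores of 211.1 and 258.4 (chromosome 1, 497887 to 498607) and was covered over 95.5% and 97.8% in brm and 0% elsewhere. That both brm values stood above all other libraries at these genes follows from how they were picked, so nothing is read from it.

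Other strong regions lay beside genes that were marked in WT as well. NF-YB5, a subunit gene of the CCAAT-binding factor NF-Y, was covered over 100% in both brm libraries, 28.8% and 100% in ref6, 100% and 67.6% in brm ref6 and 74.7% and 96.7% in WT. Its brm-only region (scores 292.4 and 318.8) lay within 1000 bp of the gene and 560 bp from a WT peak. HAT9, a class II HD-ZIP homeobox gene, showed the widest region, 1359 bp with scores of 222.9 and 533.1, next to a body covered over 100% in both brm libraries, 0% and 100% in ref6, 95.6% and 98.2% in brm ref6 and 70.0% and 70.2% in WT. CYP94B1, a cytochrome P450 gene of jasmonate turnover, had the highest single score in brm replicate 1 (445.4, with 253.4 in replicate 2), 272 bp from a WT peak. HSFA6B, a heat-shock factor gene with a region in its body (190.1 and 174.6), was covered over 90.7% and 84.9% in brm, 0% in both ref6 libraries, 0% and 8.41% in brm ref6 and 22.0% and 28.0% in WT. At HSFA6B both brm values stood above those of the other 6 libraries, which follows in part from how the regions were picked. At NF-YB5, where the member lies outside the body, the ranges of brm, ref6 and brm ref6 touched.

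The rest of the 15 strongest regions mixed genes of several kinds. AT4G21910 had scores of 242.0 and 272.5 and AT2G36780 had 222.1 and 215.3, both in the gene body. CIPK4, a kinase gene of calcium signalling, had 196.2 and 186.1 and was covered over 26.97% and 36.5% in brm and 0% in the other 6 libraries. EIF4E, the gene of a cap-binding translation factor, had a region within 1000 bp (225.2 and 310.8), and no H3K27me3 peak touched its body in any of the 8 libraries. AT5G48560, listed under the synonym CIB2, had one within 1000 bp (315.3 and 191.7), as did AT5G39480 (187.8 and 285.6), AT3G24640 (197.7 and 187.3) and the transfer RNA gene AT3G53965 (208.3 and 199.9). The body of AT3G24640 was marked in WT as well, over 97.4% and 100%, and over 100% in both brm libraries. The last of the 15 was intergenic (chromosome 4, 10736932 to 10737780; 180.6 and 365.1). Among the 5 widest, AOC2, an allene oxide cyclase gene of jasmonate synthesis, carried 3 and 2 peaks over 1184 bp and was covered over 75.8% and 49.1% in brm and 0% elsewhere. AT4G03570 (1110 bp) and AT5G19540 (1086 bp) were the others.

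**Figure D2:**
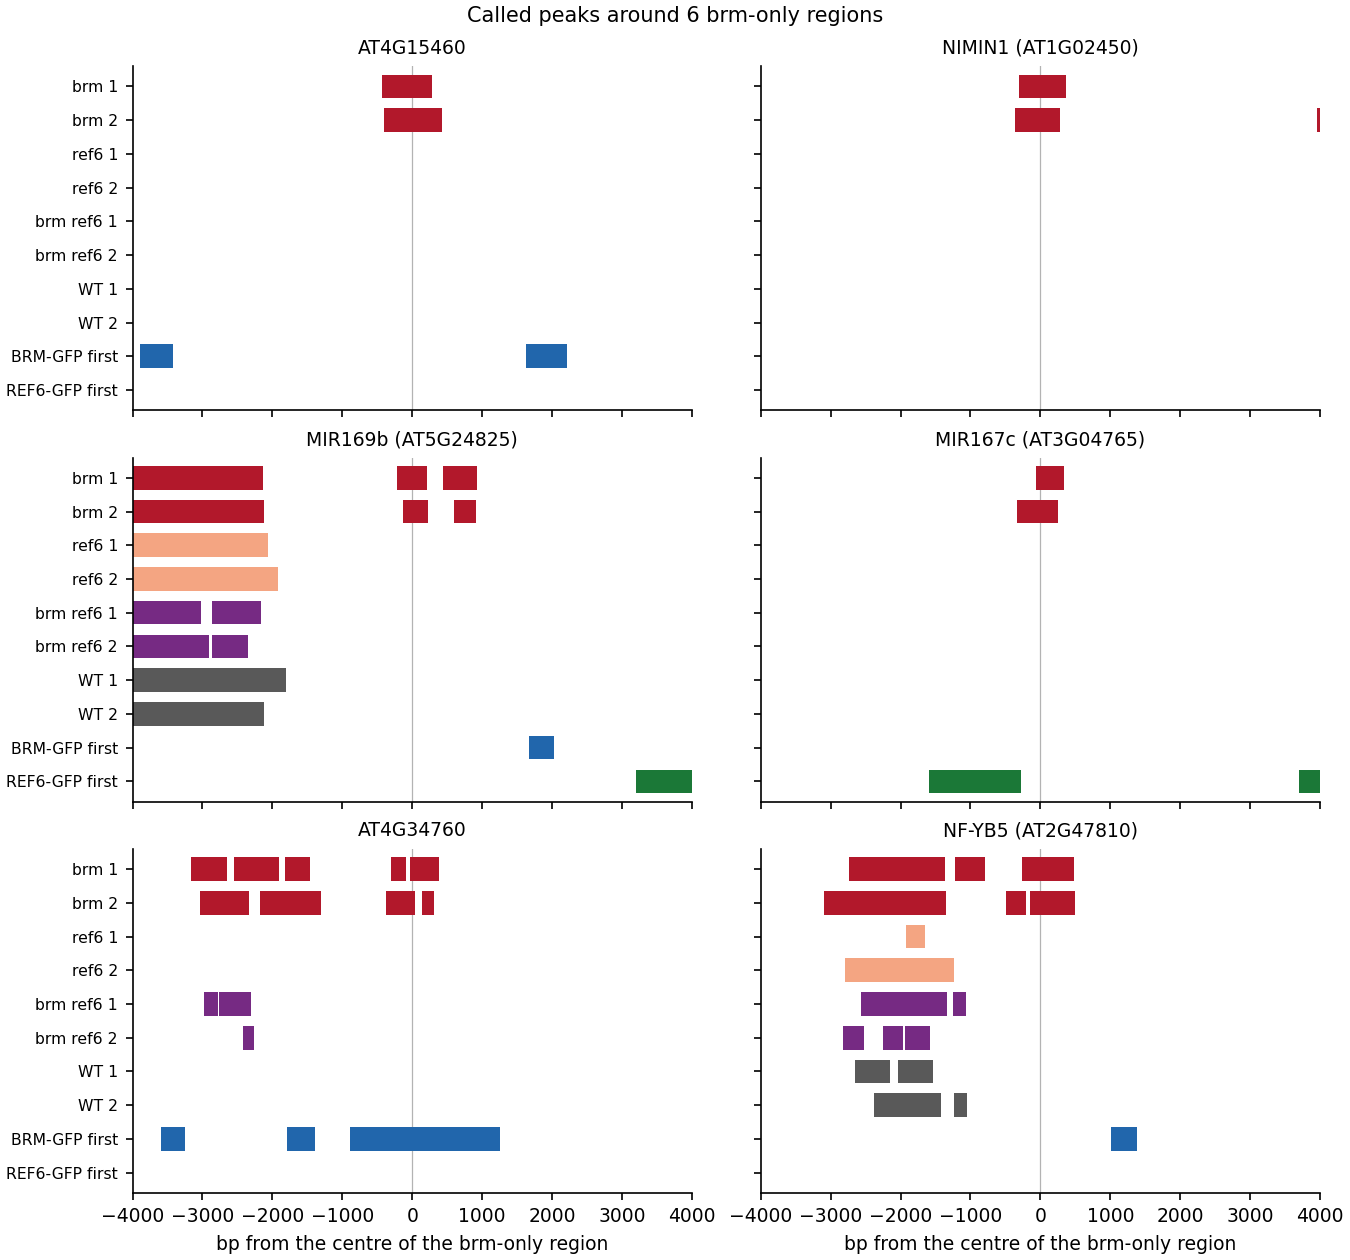
Called peaks in 10 libraries around 6 brm-only regions, drawn as bars by distance in bp from the centre of the region, with the H3K27me3 libraries of brm at the top, then ref6, brm ref6 and WT, and the first BRM-GFP and REF6-GFP libraries below. AT4G15460, NIMIN1 and MIR167c show H3K27me3 peaks in brm alone within 4000 bp. MIR169b and NF-YB5 lie beside peaks shared by all 8 libraries, and AT4G34760 sits under a BRM-GFP peak.

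Fewer of the members than of all merged regions lay in gene bodies. Each region took the name of the gene body it shared most bases with, or else of the nearest gene within 1000 bp. By that rule 197 members lay in a gene body (48.2%, against 74.7% of all regions), 121 lay within 1000 bp of one, and 91 (22.2%, against 9.84%) were intergenic. A protein-coding gene lay within 1000 bp of 294 members (71.9%, exact binomial interval 67.3 to 76.2), against 84.9% of all regions. Regions found in 1 brm library alone were placed almost identically, with 44.0% in gene bodies and 22.3% intergenic, and brm ref6-only regions stood at 85.9% and 4.32%. Over the 6268 other regions of the same width range, 68.4% were in gene bodies. These differences were not tested, and intervals cover counting error only. By chromosome, the brm-only share of regions ran from 2.13% on chromosome 3 (47 of 2207) to 3.98% on chromosome 2 (77 of 1936).

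Of the 191 genes with a member in the body, most had no called WT peak elsewhere in the body. A WT peak touched the body of 67 (35.1%), and 124 (64.9%) had none. The body was at 0% in all 6 other libraries for 109 genes, and 21 of those were covered over at least 50% in both brm libraries. The rule bars a peak of these libraries at the member itself, and the same counts were not made for other sets of regions. These numbers are therefore a description only. Counting genes covered over at least 50% in both brm and in neither WT library, 37 of the 191 qualified, against 508 of all 37899 genes (1.34%); the rule used the same contrast, so nothing is read from that. A pair of members sat at the same gene in 12 cases, including NAC019, LOG7 and MIR169b, and no gene had 3.

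Members lay both close to and far from the H3K27me3 peaks of WT. The nearest WT peak was 1042 bp away in the median (interval of the median 889 to 1357), with a range of 11 to 118845 bp. A WT peak lay within 500 bp of 116 members and within 1000 bp of 197 (48.2%), while 85 (20.8%) were more than 5000 bp from any. WT peaks flanked 69 members within 2000 bp on both sides, 199 on 1 side, and 141 on neither. The brm ref6-only regions lay farther out, at a median of 4326 bp, with 13.0% within 1000 bp. Regions of a single brm library were at 901.5 bp. Since the rule bars overlap with a WT peak, these distances are a description of each set and were not tested against each other. The brm-only median was 1671 bp over regions with a score of at least 100 in both brm libraries and 2990 bp after merging peaks up to 500 bp apart.

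**Figure D3:**
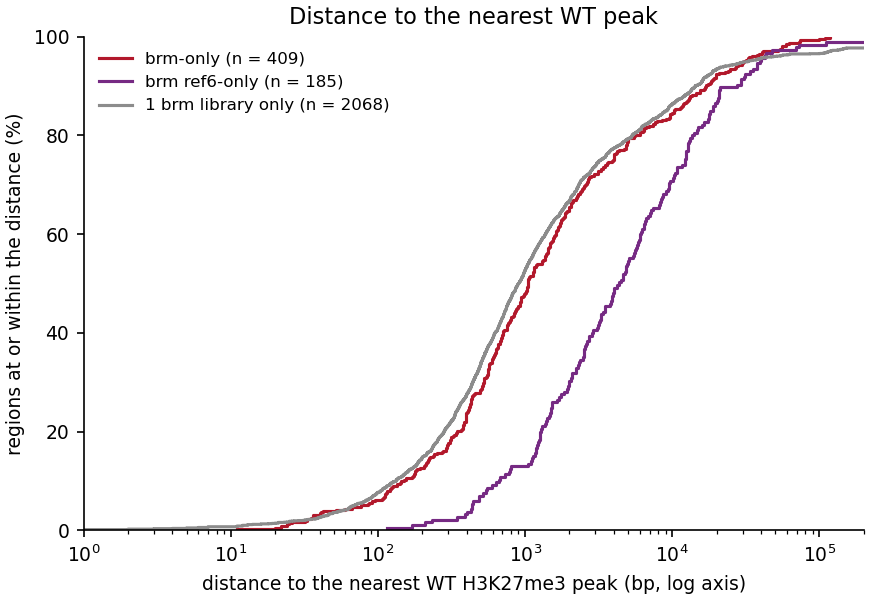
Cumulative share of regions (y axis, %) at or within a distance of the nearest WT H3K27me3 peak (x axis, bp, logarithmic) for brm-only regions, brm ref6-only regions and regions found in 1 brm library alone. The brm-only curve runs beside that of 1 brm library alone (medians 1042 and 901.5 bp) and left of the brm ref6-only curve (4326 bp).

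The nearest members almost touched a WT peak. AT5G50220 had its brm-only region (scores 100.3 and 127.1) 11 bp from a WT peak. UMAMIT28, an amino-acid transporter gene, followed at 20 bp, and the cytochrome P450 gene CYP81D11 and CLE17, a gene of a small signalling peptide, both at 22 bp. The farthest were AT5G35341 at 118845 bp, a pair of intergenic regions on chromosome 2 at 108422 and 99900 bp, an intergenic region on chromosome 1 at 73275 bp and MIR167c at 72690 bp.

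MicroRNA genes were the list with the most members. Of 329 microRNA genes in the gene table, 10 were named by a brm-only region (3.04%), against 306 of all 37899 genes (0.807%). Among genes named by any merged region, the share was 10 of 50 microRNA genes and 306 of 7697 genes overall (3.98%). Such genes are short, so a single peak can cover one whole. MIR169b, whose microRNA targets NF-YA transcripts, had 2 members (156.1 and 140.9 in the body, 192.2 and 132.2 beside it). MIR167c, whose microRNA targets auxin response factors, scored 131.0 and 299.7, and MIR166e, whose microRNA targets class III HD-ZIP genes, 295.2 and 93.56. All 3 were covered over 100% in both brm libraries and 0% in the other 6. MIR851, MIR863 and MIR8167e were also covered over at least 50% in both brm libraries and 0% elsewhere, and MIR5025 over 89.0% in brm replicate 1 and 0% in replicate 2.

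The remaining microRNA genes were less clear. MIR156c, whose microRNA delays the adult phase by repressing SPL genes, was covered over 100% in both brm libraries, 0% and 100% in ref6, 0% and 86.5% in brm ref6 and 5.77% and 33.7% in WT. Its brm-only region lay beside the gene, with scores of 63.40 and 56.74. MIR164c, whose microRNA targets the boundary genes CUC1 and CUC2, was covered over 100% in both brm libraries and over 100% and 52.0% in WT, with a member beside it (53.16 and 57.01). MIR390b, whose microRNA starts trans-acting small RNAs, had a member within 1000 bp (138.0 and 75.64) and no coverage of its body in any library. The brm libraries overlapped at least 1 other library at MIR156c and MIR164c.

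**Figure D4:**
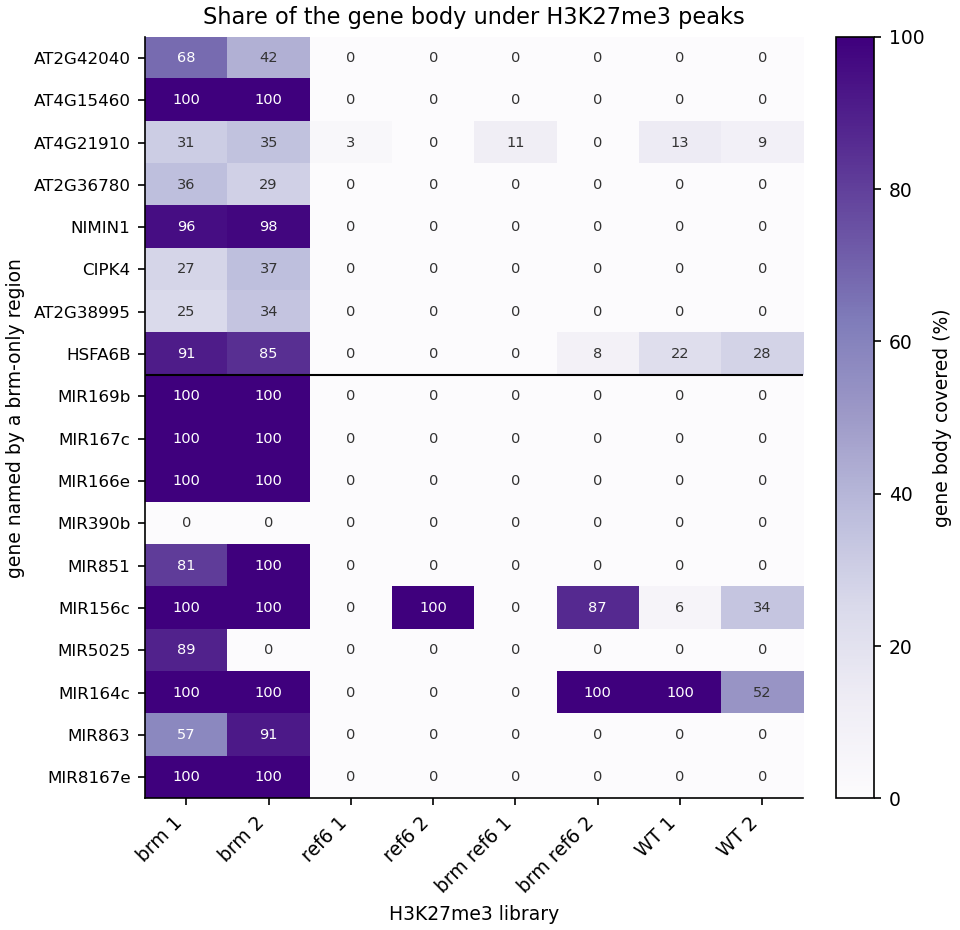
Share of the gene body under H3K27me3 peaks (%, colour and printed value) in each of the 8 libraries, for the 8 highest-scoring brm-only genes with a region in the body (above the line) and the 10 microRNA genes named by a brm-only region (below it). The ref6, brm ref6 and WT columns stand at 0 except at AT4G21910, HSFA6B, MIR156c and MIR164c, which carry the mark in WT as well. The brm columns range from 100% in both libraries, as at AT4G15460, to partial coverage, as at AT2G36780 (36.4% and 29.2%). MIR5025 has 89.0% and 0%, and MIR390b 0% in both.

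Each list of transcription factor genes held at most 3 named genes. Of 15 floral identity genes only SHP2, a gene of fruit opening, was named (8.33% of the 12 that any merged region named). Its region scored 133.7 and 102.3 and lay 205 bp from a WT peak. The SHP2 body was covered over 62.0% and 61.6% in brm, 33.2% and 63.5% in ref6, 57.6% and 53.6% in brm ref6 and 49.7% and 47.9% in WT. The ref6 values spanned those of brm. SPL4, a miR156 target that promotes flowering, had 97.77 and 59.49 and 0% coverage outside brm. With MIR156c it made 2 of 16 phase change genes (28.6% of the 7 that any merged region named). NAC019, a NAC gene of stress responses, carried 2 members (83.36 and 109.3, 84.93 and 50.03) and was covered over 30.8% and 35.5% in brm and 0% elsewhere. The other NAC gene, NAC090, also had 2 members, but its body was covered over 1.49% and 4.32% in brm and 18.1% and 16.4% in WT. NAC019 and NAC090 were 2 of 81 NAC genes (4.35% of the 46 that any merged region named). The MYB list gave MYB86, MYB112 and MYB102 (3 of 121, or 3.70% of 81 named), and the WRKY list WRKY36 and WRKY10 (2 of 67, or 5.26% of 38). The NAC, MYB and WRKY shares lie near the 3.98% of all named genes. The list of genes with an HB or WOX symbol gave HB25 and HB-8 (2 of 48, or 8% of 25); HAT9 and BLH4, homeobox genes under other symbols, are not in it. LBD39, a nitrate-responsive repressor gene, was the 1 LBD gene of 35 (5.56% of 18 named).

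Lists of metabolic and transport genes held up to 6 named genes. The cytochrome P450 list had 6 of 241 genes (2.49%): CYP94B1, CYP708A2, CYP81D11, CYP96A14P, CYP735A1 and CYP714A2. Among genes that any merged region named, that is 6 of 138 (4.35%), near the 3.98% of all such genes. Transporter genes gave 4 of 94 (UMAMIT22, UMAMIT28, AAP7 and SWEET3), or 7.41% of 54 named. Small peptides gave 3 of 185 (CLE13, CLE17 and LCR67), or 4.69% of 64 named. CLE13 was covered over 86.0% and 34.6% in brm and 0% elsewhere. The terpene synthase list, built on the symbol TPS, had 3 of 21: the sesquiterpene and monoterpene synthase genes TPS21 and TPS-CIN, and TPS2, which belongs to trehalose metabolism. They were 3 of the 13 genes of that list named by any region (23.1%). GSTU12, XTH3, HSFA6B and SAUR9 were the single members of their lists. GSTU12 was 1 of 47 glutathione transferase genes (6.25% of 16 named) and XTH3 1 of 62 expansin and XTH genes (2.86% of 35). HSFA6B was 1 of 41 heat-shock genes (11.1% of 9), and SAUR9 was the 1 of 16 SAUR genes that any merged region named. Such counts cover the listed genes only, and genes of a family under other symbols are left out. No gene was named in 10 further lists. Among developmental and hormone genes these were auxin (0 of 18, with 15 named by other regions), meristem and boundary (0 of 16, with 14), flowering time (0 of 16, with 9), gibberellin and brassinosteroid (0 of 18, with 8) and seed maturation (0 of 10, with 7). The others were receptor-like proteins and kinases (0 of 115, with 39), UDP-glycosyltransferases (0 of 58, with 18), ERF, DREB and CBF factors (0 of 33, with 12), chromatin regulators (0 of 18, with 3) and light and clock genes (0 of 18, with 0). Each list holds a limited set of genes, so a 0 does not mean that no gene of the kind was named. BAS1, WAG1 and PID2, for example, were named by brm-only regions and stand in none of these 10 lists. All of these counts are small, and none was tested.

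By count, the share of brm-only regions with a first-library BRM-GFP peak was near that of all merged regions. A first-library BRM-GFP peak overlapped 29 of 409 (7.09%, exact binomial interval 4.80 to 10.02), against 8.61% of all regions and 7.48% of the 6268 others of the same width range. Per base, 5.74% of the brm-only length lay under such a peak, against 4.54% in the others of that width range and 2.35% in all regions. In gene bodies the share was 11.2% (22 of 197, 7.13 to 16.4), against 10.3% of all regions in gene bodies, and outside gene bodies it was 3.30% (7 of 212). A BRM-GFP peak lay within 1000 bp of 100 members (24.4%). The shares outside gene bodies and within 1000 bp were not computed over all regions, so neither is read as high or low. The median of the lower brm score was 67.52 in the 29 members that overlapped a BRM-GFP peak and 66.48 in the other 380.

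Members under a BRM-GFP peak were led by AT1G69890, whose BRM-GFP score of 1517 stood beside weak H3K27me3 scores of 61.76 and 55.91. AT4G34760 had a BRM-GFP score of 1255, H3K27me3 scores of 117.0 and 133.7, and a body covered over 70.8% and 64.3% in brm and 0% elsewhere. It was also the 1 member with a peak in all 3 later BRM-GFP libraries, with scores of 81.83 and 240.3 in ref6 and 127.8 in wild type. MIR156c had a BRM-GFP score of 1056 (91.92 in the later wild-type library), AT2G42350 1011, and PTF1, a TCP transcription factor gene, 974.7 beside H3K27me3 scores of 93.70 and 262.4. LBD39 followed at 931.1, AT2G29660 at 890.3, ADF5, an actin-depolymerising factor gene, at 654.6, and BLH4, a BEL1-like homeobox gene, at 538.5. AT1G70990 closed the 10 at 499.3. Over the 29, the BRM-GFP score had a median of 264.4 and a range of 57.69 to 1517. Of the strongest H3K27me3 regions above, AT2G42040 (346.3), AT2G36780 (275.9) and CIPK4 (170.4) carried a BRM-GFP peak.

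The later BRM-GFP libraries, which are shorter lists, overlapped 8 members in all. The share was 0.733% in both ref6 libraries (3 of 409 each) and 1.22% in the wild-type library (5 of 409). The difference, ref6 minus wild type, was −0.489 percentage points, with an exact permutation p of 0.333, two-sided, over n = 2 and 1 libraries. That is the smallest p these libraries allow, so the comparison could not pass a threshold of 0.05. Over all merged regions the 3 libraries stood at 2.49%, 2.49% and 2.16%. The sign of the difference turned with the peak filter: it was 0.244 with BRM-GFP scores of at least 100 and 0.946 with H3K27me3 scores of at least 100.

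REF6-GFP peaks rarely overlapped the brm-only regions. First-library peaks overlapped 3 of 409 (0.733%, exact binomial interval 0.152 to 2.13), against 12.5% of all regions and 11.5% of the 6268 others of the same width range. The 3 were MIR167c (REF6-GFP score 1279), AT1G32910 (212.4) and MIR156c (77.34). At MIR167c that peak covered only the edge of the region, from 335 to 274 bp before its centre. Of the 20 ref6-only regions 11 had such a peak (55%, 31.5 to 76.9), and of the 185 brm ref6-only regions 61 (33.0%, 26.3 to 40.3). The 429 regions with peaks in both brm libraries, none in WT, and one in ref6 or brm ref6 gave 35 (8.16%, 5.75 to 11.2). Of the 52 WT-only regions 1 had such a peak (1.92%, 0.0487 to 10.3), as did 9 of the 2068 regions of 1 brm library alone (0.435%, 0.199 to 0.825). These shares were not tested against each other. The median width was 426 bp for brm-only, 398 bp for brm ref6-only and 1035 bp for ref6-only regions. The rules that define the sets use the ref6 and brm ref6 lists.

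**Figure D5:**
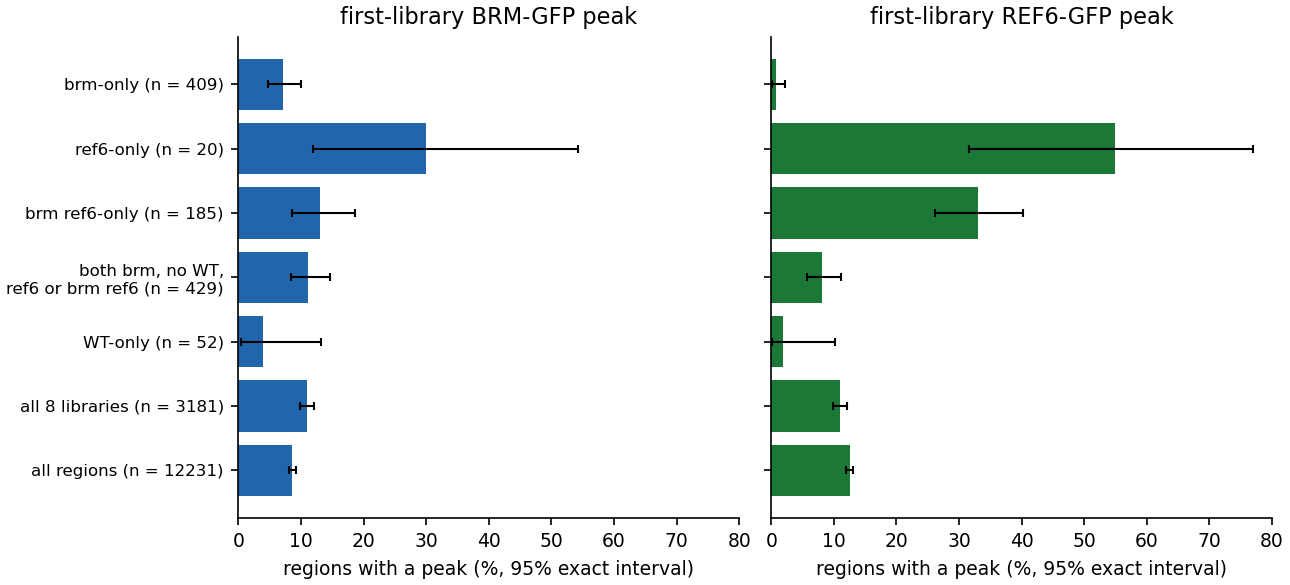
Share of regions (%, bars with 95% exact binomial intervals) that overlap a first-library BRM-GFP peak (left) or REF6-GFP peak (right), for brm-only regions and 6 other sets of merged H3K27me3 regions. BRM-GFP stands at 7.09% in brm-only and 8.61% in all regions, and REF6-GFP at 0.733% and 12.5%.

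None of the 4 later REF6-GFP libraries had a peak in any brm-only region. The count was 0 of 409 in both brm libraries and in both wild-type libraries. By a floor of 3 counts of 409, a count of 0 allows a share of up to 0.733%, and the exact binomial interval reaches 0.898%. Over all merged regions these libraries overlapped 7.28% and 4.59% in brm and 6.30% and 4.79% in wild type. The difference between brm and wild type at the brm-only regions was 0, with an exact permutation p of 1, two-sided (n = 2 libraries each, smallest possible p 0.333). With 0 in all 4 libraries that p was fixed, and it says nothing on REF6-GFP binding in brm against wild type. The nearest first-library REF6-GFP peak was 8564 bp away in the median, against 5822 bp for all regions. Within 1000 bp, 19 members (4.65%) had one, a share that was not computed for all regions. The nearest first-library BRM-GFP peak was 4168 bp away, against 4193 bp for all regions.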

How the data were processed

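The submitters' processing notes name Bowtie2 2.2.5, MACS 1.4 and TAIR10; control and calling options were not given in the sources used here. Each of the 17 deposited lists belongs to 1 library and gives positions and the authors' score, which MACS derives from the negative logarithm of the p-value. The 10 input samples were not analysed here. Peaks were merged and overlapped in Python 3.11.15 (pandas 2.3.3, scipy 1.17.1), and the code was tested on simulated data. Coordinates count from 1. Genes (37899 on 5 chromosomes) came from a TAIR10.1 table: 58.4% of H3K27me3 peak midpoints in brm and WT fell in protein-coding bodies, against 42.6% and 42.3% after shifts of 1000 bp. Shares have exact (Clopper-Pearson) and medians have binomial intervals, at 95%. Libraries were compared by exact permutation, whose p measures the spread between these libraries. Alternatives were other score limits, merging gaps, equal peak numbers per list and other overlap rules, and leaving out each library. Named were the strongest, widest, nearest, farthest and GFP-bound members and members of 27 gene lists, of which 1 is not reported here; the members and lists were chosen with earlier results of these data known. No sequence was used here.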

Additional observations from a re-analysis of the deposited data

How the results depend on the processing

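Of 161 alternative values, 100 were classed as the same, 56 as moved and 5 as reversed. Shares and medians were the same when they stayed within the interval of the reported value. Counts of regions were judged by their ratio to the reported count. Thus 562 brm-only regions, without brm ref6 replicate 1, were classed as the same as 409. Differences between GFP libraries were the same when they kept their sign or stayed at 0. Read depth is unknown, and the causes were not tested. With a score of at least 100 in all 8 lists there were 370 brm-only, 11 ref6-only, 106 brm ref6-only and 16 WT-only regions; for brm-only regions the share at a protein-coding gene was 79.5%, the median WT distance 1983 bp, width 705.5 bp and lower score 141.7. With at least 100 in both brm libraries, 72 regions had medians of 1671 bp, 623 bp and 130.9. Merging peaks up to 500 bp apart gave 214 brm-only, 120 brm ref6-only and 26 WT-only regions, 2990 bp to WT, 559.5 bp width and 10.3% with BRM-GFP. Lists cut to an equal number of peaks gave 163, 36, 25 and 22 regions for brm, ref6, brm ref6 and WT. For brm-only regions they gave 82.8% at a protein-coding gene, 2896 bp, 928 bp and 249.5. Counting gene bodies alone gave 41.6%, and GFP peaks within 1000 bp gave 24.4% for BRM-GFP and 4.65% for REF6-GFP.

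The BRM-GFP difference, ref6 minus wild type, reversed to 0.946 points (scores of at least 100 in all lists), 0.234 (merging) and 0.613 (equal peak numbers). It also reversed to 0.244 (GFP scores of at least 100) and 1.27 (without brm replicate 1). It was 0 with scores of at least 100 in both brm libraries and with a GFP peak over at least 50% of the region. The REF6-GFP difference, brm minus wild type, was 0.135 with scores of at least 100 in all lists.

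Leaving out each library in turn gave 428 to 1893 brm-only, 20 to 285 ref6-only, 187 to 1159 brm ref6-only and 53 to 332 WT-only regions, 66.2% to 76.8% at a protein-coding gene, 754 to 1483 bp to WT, 233 to 448 bp width, 4.81% to 8.01% with BRM-GFP, 0.370% to 0.935% with REF6-GFP, a lower score of 66.48 to 70.93, a BRM-GFP difference of −0.489 to 1.27 and a REF6-GFP difference of −0.370 to 0.0316. Without the single wild-type BRM-GFP library its difference could not be given.

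With the replicate number as a replicate block, the REF6-GFP difference was 0 with an exact permutation p of 1. Same-numbered REF6-GFP libraries of brm and wild type had correlated deviations (0.286), and H3K27me3 libraries of brm had 0.00306 with ref6, 0.0356 with brm ref6 and 0.00380 with WT. For the other results no paired analysis was possible, because those on H3K27me3 come from no test and the BRM-GFP groups share 1 number.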

Other observations

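Genes of cytokinin metabolism and perception appeared among the brm-only regions; they formed no list of their own and were picked after their values were seen, so they carry no weight as a group. CKX2, a cytokinin oxidase gene, had scores of 97.11 and 134.6 in brm, but its body was also covered over 36.7% and 36.2% in WT. LOG7, a cytokinin-activating enzyme gene, had 2 regions (143.8 and 76.30, 51.12 and 53.40), of which the stronger lay under a BRM-GFP peak (score 236.7). WOL, a cytokinin receptor gene, had 55.31 and 63.34, 18484 bp from a WT peak, and CYP735A1, a cytokinin hydroxylase gene, had 52.98 and 57.60. FWA, a homeobox gene known for epigenetic silencing, had a region with 71.35 and 138.5, and its body was covered over 42.9% and 24.0% in brm, 14.3% and 25.4% in ref6, 33.3% and 12.1% in brm ref6 and 13.1% and 4.12% in WT.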
